A study of Mus musculus with 10 samples.

Results

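The transcriptome of germinal center B cells from mice lacking ZBTB38 was compared with that of ZBTB38-sufficient controls. Samples were assigned by their titles: the 2 ZBTB38 WT and 2 ZBTB38 HET samples formed 1 control group of 4, and the 6 ZBTB38 KO samples formed the other, so that all 10 samples of the series were used. WT mice were Zbtb38fl/fl without Cre, HET mice carried 1 floxed allele (Zbtb38fl/+) with Vav-Cre, and KO mice were Zbtb38fl/fl with Vav-Cre. All mice were immunized with NP-OVA in Alhydrogel, and NP-binding GL7+IgD- B cells were sorted 2 weeks later for paired-end SMART-Seq v4 libraries. Vav-Cre is active across hematopoietic cells and not in B cells alone, the floxed line came from a single founder, and WT mice differ from HET and KO mice in lacking Cre as well. Age and sex were not stated, and the p-values below measure the spread between these libraries.

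ZBTB38 is a transcription factor of the BTB-ZF family, in which a BTB domain mediates contacts between proteins and zinc fingers bind DNA. It is also one of the few proteins known to bind methylated CpG sites. Family members such as BCL6, which is required for the germinal center, and ZBTB32, which limits memory B cell recall, act as repressors in B cells. In germinal centers, activated B cells proliferate, mutate their immunoglobulin genes in the dark zone and are selected in the light zone.

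Gene levels were estimated counts summed per gene and are given as counts scaled to equal depth per library (CPM) after TMM normalization. Totals ranged from 26612431 to 41059082 estimated counts per library. B cell markers were abundant in every library, with a summed level of 10 genes between 11289 and 14380 CPM. KO replicate 6 (KO6) stood apart: its correlation with the other 9 libraries had a median of 0.948, against medians of 0.967 to 0.981 elsewhere, its mitochondrial share was 3.73% against 1.53% to 2.82%, and its summed level of 14 germinal center B cell genes was the lowest, at 3720 CPM. Transcripts of Y-linked genes were abundant in both WT libraries and in KO1, KO2 and KO5, and summed to at most 6.96 CPM in both HET libraries and in KO3, KO4 and KO6. Genotype and Y-linked level cannot be told apart within the control group.

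Zbtb38 itself, examined first as the targeted gene, was lower in every KO library and was the only gene to pass the test. The gene (ENSMUSG00000040433.16) lies on the minus strand at chr9:96682770-96752831 (GRCm38). Its level was 162 and 152 CPM in WT, 117 and 106 CPM in HET, and 25.6, 50.5, 34.8, 33.0, 27.6 and 18.7 CPM in KO1 to KO6. The 3 genotypes did not overlap, and HET lay between WT and KO. On average, HET retained 71.1% and KO retained 20.2% of the WT level. The log2 fold change of KO over control was -2.08 (SE 0.23), with a Benjamini-Hochberg adjusted p of 0.0104 in edgeR's quasi-likelihood test. Against WT alone the log2 fold change was -2.31 (adjusted p 0.0734), and against HET alone it was -1.82 (adjusted p 0.252), and the second of these missed the threshold of 0.1 used throughout. With counts rescaled for transcript length, so that short transcripts weigh as much as long ones, the fold change was -1.04 and the call was lost (adjusted p 0.745).

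The transcripts of Zbtb38 did not fall alike. In the annotation the last exon of the gene spans chr9:96682770-96689029, 6260 bases, and begins exactly at the start codon. The floxed allele was designed to remove the whole coding sequence, which is the first 3594 bases of this exon. How far the deletion runs into the untranslated remainder of the exon was not analysed here, so some of that part may still give reads in KO. The first 30 coding bases are printed because they mark this boundary, 5′ to 3′ on the minus strand (chr9:96689000-96689029, GRCm38), with the start codon in capitals.
Zbtb38 ENSMUST00000152594.7: ATGacagtcatgtccctctccagggacctc

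The transcript with the full reading frame, ENSMUST00000152594.7, has 84.5% of its 7406 bases in that exon, of which 3594 bases are coding. Its level was 108, 93.0, 82.9 and 64.0 CPM in WT1, WT2, HET1 and HET2, and 7.28, 22.1, 16.5, 18.9, 10.2 and 4.33 CPM in KO1 to KO6. Every KO library was below every control, although the transcript was not called in edgeR's test (adjusted p 0.274). The difference in mean log2(CPM + 1) was -2.78, with an exact permutation p of 0.00952 (two-sided), the smallest value that 6 against 4 libraries can give. The other transcript annotated with the whole coding sequence, ENSMUST00000093798.8, was at 0 in all 10 libraries. Counts assigned to whole-coding-sequence transcripts thus stood at 73.0% of the WT mean in HET and 13.1% in KO. These counts do not show an intact reading frame in KO, because ENSMUST00000152594.7 also has 1146 bases outside the last exon and untranslated bases within it. From aligned reads, the paper reported a complete loss of transcripts within the floxed exon in KO and intermediate levels in HET. Reads were not aligned here.

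ENSMUST00000126066.7, an incomplete transcript of the non-stop decay class with 94.4% of its bases in the last exon, fell most. It was the only transcript called among 29105 tested (0.00344% of all; log2 fold change -4.55, SE 0.52, adjusted p 0.0671 in edgeR's test), with 29.8, 35.9, 6.79 and 15.1 CPM in the controls and 0.301 to 1.38 CPM in KO. Leaving out any 1 library other than HET1 or KO6 ended this call. ENSMUST00000140121.7, with 61.1% of its bases in the last exon, had a log2 fold change of -1.08 (SE 0.23, unadjusted edgeR p 0.000624), which did not pass adjustment. It was at 12.6 to 16.5 CPM in controls and 5.24 to 9.59 CPM in KO, without overlap. ENSMUST00000128269.7, a short transcript of 929 bases of which 376 lie outside the last exon, was at 9.38 to 11.2 CPM in controls and 7.91 to 17.5 CPM in KO, with overlap (log2 fold change 0.00, SE 0.25, edgeR unadjusted p 0.991). Salmon, the tool that made the counts, assigns reads to annotated transcripts only, so reads from the sequence that remains after deletion can be counted only under transcripts that also contain the last exon.

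Within the gene, the balance between transcripts moved. ENSMUST00000128269.7 held 29.8% to 43.8% of the gene's TPM (transcript abundance corrected for length) in controls and 68.9% to 81.1% in KO, a difference of 37.9 percentage points (exact permutation p = 0.00952). The full-length ENSMUST00000152594.7 went from between 24.7% and 32.6% to between 3.99% and 15.9% (difference -20.2 points, exact permutation p = 0.00952). The share of ENSMUST00000140121.7 was 11.1% to 18.2% in controls and 12.03% to 17.4% in KO, which overlapped (exact permutation p = 0.752).

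**Figure D1:**
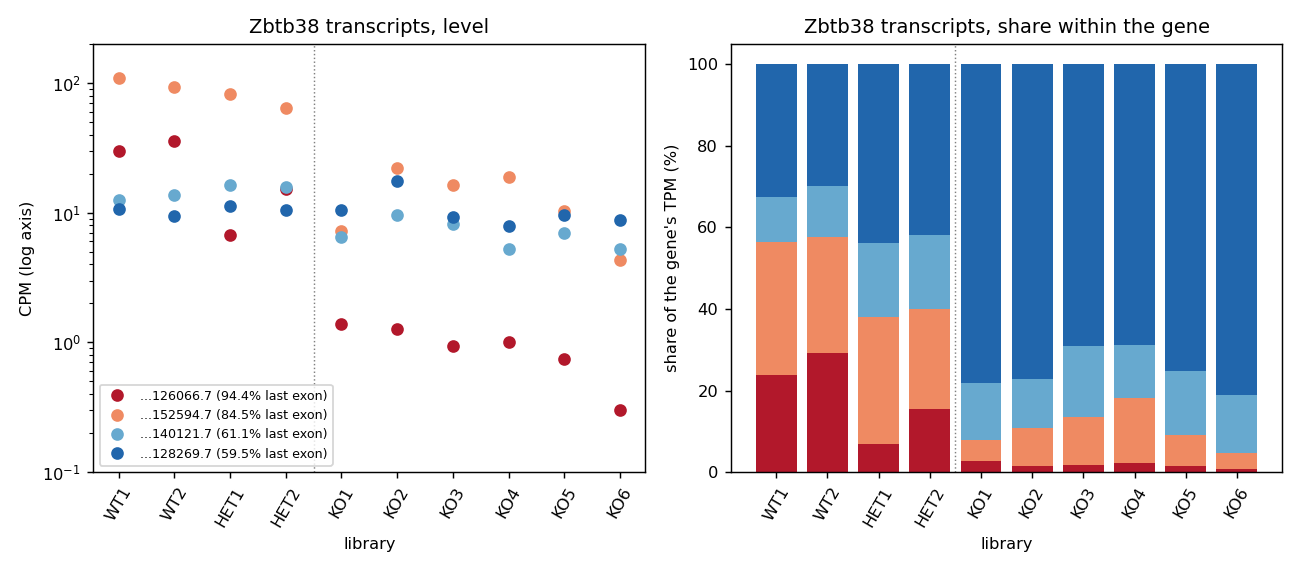
Zbtb38 transcripts in each of the 10 libraries. Left, level of the 4 detected transcripts in CPM (log axis); right, their shares of the gene's TPM in percent; names are ENSMUST identifiers shortened to their last digits, with the part of each transcript's bases in the annotated last exon, which includes untranslated sequence that the deletion need not cover. Every detected transcript other than the shortest is lower in all 6 KO libraries than in the 4 controls, and the shortest transcript takes 68.9% to 81.1% of the gene's TPM in KO.

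Beyond Zbtb38, no gene passed the main test. Of 13347 genes tested, 1 was called at an adjusted p below 0.1 (0.00749%). At an unadjusted p below 0.05 there were 841 genes (6.30% of those tested), of which 540 were lower (4.05%) and 301 higher (2.26%) in KO. All KO libraries were below all controls for 126 genes (0.944%) and above all controls for 71 (0.532%), 197 genes in all (1.48%). The precision behind these counts varied with level: the median SE of a log2 fold change was 0.23, with quartiles of 0.15 and 0.53. The 95% interval lay within a 2-fold change in either direction for 8310 genes (62.3%), and for 90.8% of the 8587 genes with a mean of at least 10 CPM. For the other genes, Zbtb38 among them, the interval reached beyond a 2-fold change in at least 1 direction.

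**Figure D2:**
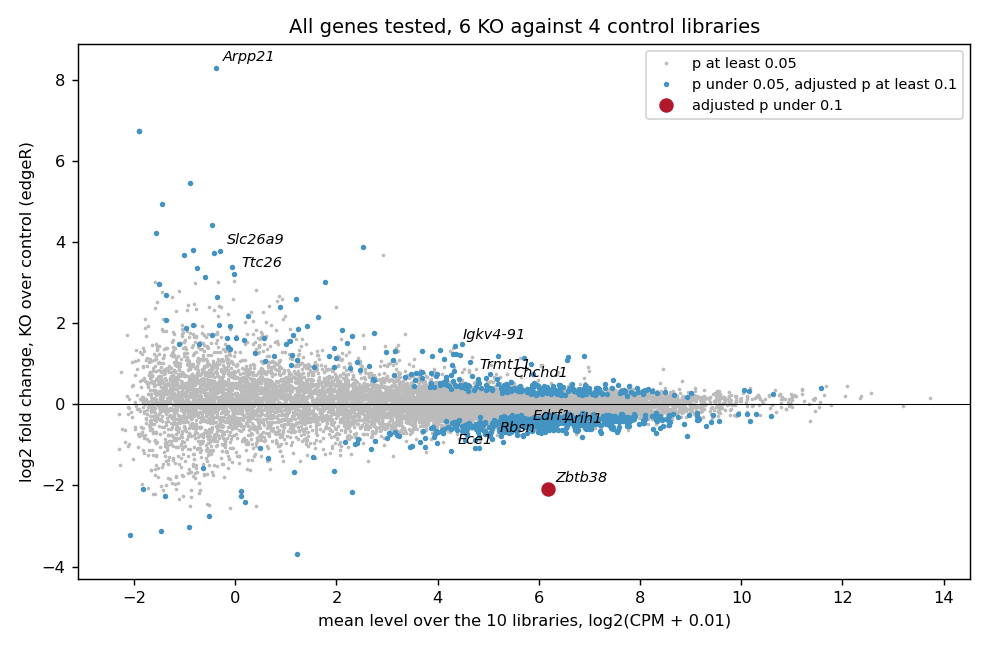
All 13347 genes tested, with the mean level over the 10 libraries as log2(CPM + 0.01) on the horizontal axis and the log2 fold change of KO over control on the vertical axis. Grey points have an unadjusted p of at least 0.05, blue points a p below 0.05 and an adjusted p of at least 0.1, and the red point, Zbtb38 at -2.08, is the 1 gene with an adjusted p below 0.1.

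DESeq2, which models the spread differently, called 25 of 15562 genes (0.161%), 14 lower and 11 higher in KO. Of these, 21 had an unadjusted p below 0.05 in edgeR's test and the other 4 had been removed there by the filter on low counts. In 19 of the 21 that edgeR tested, the KO and control libraries did not overlap, against 1.48% of all genes tested. The 4 filtered genes were not part of this count. The genes described next are those with the smallest p in either test, so that their separation from the controls is a description of how they were chosen.

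Most genes of smallest p that were lower in KO were of intermediate level and changed by less than 2-fold. Arih1, an E3 ubiquitin ligase that works with cullin-RING ligases, was at 98.0 and 95.6 CPM in WT, 115 and 114 CPM in HET, and 58.0, 69.6, 74.3, 69.6, 69.9 and 67.7 CPM in KO1 to KO6. The groups were separate, with a log2 fold change of -0.63 (SE 0.10, edgeR adjusted p 0.298, DESeq2 adjusted p 4.32e-06). Edrf1, named for its role in erythroid differentiation, was at 61.8, 68.8, 68.8 and 65.3 CPM in WT1, WT2, HET1 and HET2 and at 41.4, 49.8, 39.5, 45.9, 47.3 and 45.9 CPM in KO1 to KO6 (log2 fold change -0.56, SE 0.11). These too did not overlap.

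Ece1, which encodes endothelin-converting enzyme, had the largest difference among these genes after Zbtb38. It was at 21.6, 32.0, 27.6 and 33.0 CPM in controls and at 9.24, 11.2, 10.6, 18.3, 16.6 and 10.9 CPM in KO (log2 fold change -1.15, SE 0.23, edgeR adjusted p 0.549, DESeq2 adjusted p 0.00141). Rbsn, which encodes the endosomal Rab effector rabenosyn, was at 40.8 to 54.2 CPM in controls and 17.2 to 32.7 CPM in KO (log2 fold change -0.86, SE 0.17). D2hgdh, whose product oxidizes D-2-hydroxyglutarate, was at 28.5 to 40.7 CPM against 21.1 to 24.97 CPM (log2 fold change -0.61, SE 0.14). The control and KO libraries were separate for all 3 genes.

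Of the other 4 genes in this group, Msl2 (a subunit of the MSL histone acetyltransferase complex; log2 fold change -0.53), Ttc7b (a scaffold of a phosphatidylinositol kinase complex; -0.64) and Klhl20 (an adaptor of cullin ubiquitin ligases; -0.56) did not overlap between the groups. Med12, a subunit of the Mediator kinase module, did: controls ranged from 55.1 to 78.3 CPM and KO from 31.4 to 58.2 CPM (log2 fold change -0.71). For all 9 genes other than Zbtb38, KO was below WT and below HET when each was taken alone, with log2 fold changes of -1.06 to -0.39 against WT and -1.24 to -0.49 against HET.

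Of the 10 genes of smallest p that were higher in KO, 6 were immunoglobulin variable genes, and Trmt11, Chchd1 and Olfr984 were among the others. Trmt11, the catalytic subunit of a tRNA methyltransferase, was at 19.12, 24.1, 16.7 and 14.7 CPM in controls and 24.4, 32.1, 29.6, 27.7, 32.2 and 35.9 CPM in KO (log2 fold change 0.70, SE 0.18). Chchd1, a protein of the mitochondrial ribosome, was at 29.8 to 34.2 CPM in controls and 39.7 to 56.9 CPM in KO (log2 fold change 0.51, SE 0.13). Neither gene overlapped between groups, whereas Olfr984, an olfactory receptor gene, did (log2 fold change 1.29, SE 0.38).

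Among the variable genes, Igkv4-91 had the smallest p. It was at 9.64, 10.7, 5.23 and 14.8 CPM in controls and at 32.8, 22.1, 28.3, 30.5, 38.4 and 11.4 CPM in KO (log2 fold change 1.43, SE 0.35, DESeq2 adjusted p 0.0348), with KO6 inside the control range. Of 195 immunoglobulin variable genes tested, a set chosen after these values were seen, 28 were higher (14.4%, against 2.26% of all genes) and 1 was lower at p below 0.05, and 150 had a log2 fold change above 0, with a median of 0.46. Their summed level nevertheless overlapped between groups, at 5770 and 5129 CPM in WT, 3486 and 3632 CPM in HET and 3691 to 7829 CPM in KO, with the highest value in KO6. These genes are short, with a median length of 359 bases. With transcript length as an offset, the median was 0.08 and 12 of the 195 were higher at p below 0.05. Over all 13347 genes tested with this offset, 288 were higher. Variable genes share long stretches of sequence, so the division of reads among them is uncertain.

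**Figure D3:**
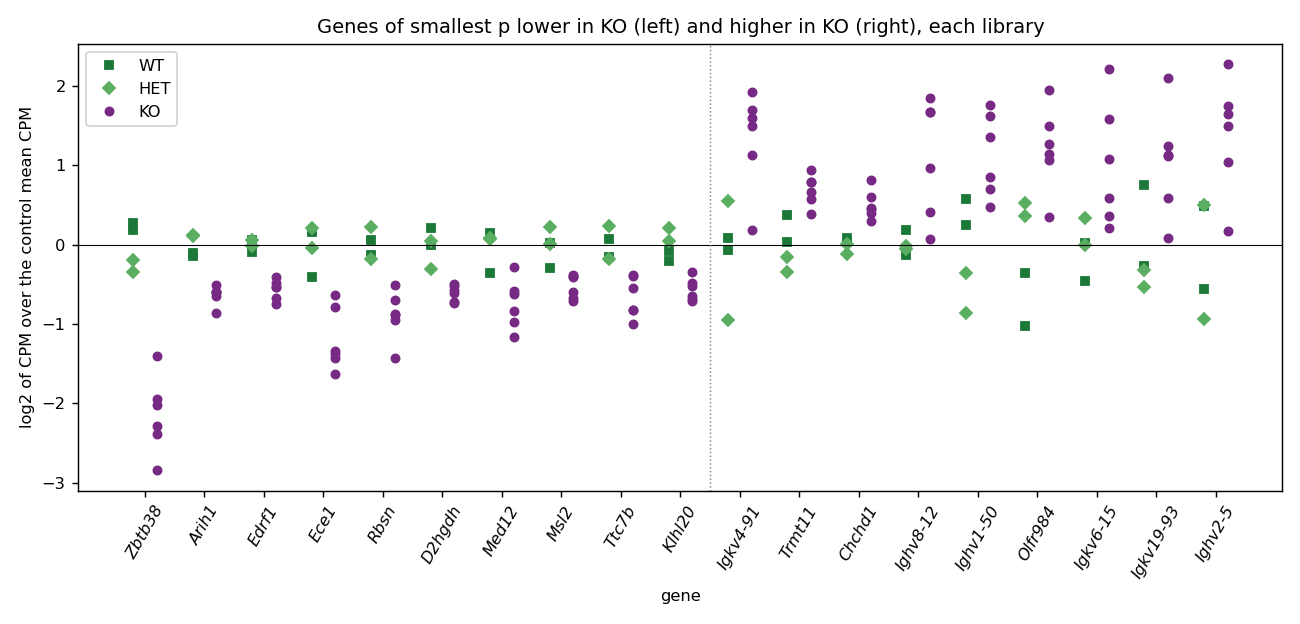
The 10 genes of smallest edgeR p that were lower in KO (left of the dotted line) and 9 of the 10 that were higher (right), with 1 point per library. The vertical axis is the log2 of the library's CPM over the control mean CPM; squares are WT, diamonds HET and circles KO. Zbtb38 is the farthest below the control mean in every KO library, and the immunoglobulin genes spread widely within KO.

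Several genes called by DESeq2 alone were near the limit of detection. Slc26a9, an anion transporter, had 2, 3, 2 and 4 counts in WT1, WT2, HET1 and HET2 and 54, 36, 60, 14, 36 and 25 counts in KO1 to KO6 (log2 fold change 3.78, SE 0.72, edgeR unadjusted p 0.00017, DESeq2 adjusted p 0.000372). Ttc26, a component of intraflagellar transport, had 5, 6, 3 and 6 counts in controls and 77, 17, 23, 20, 53 and 84 counts in KO (log2 fold change 3.22, SE 0.73). Both were below 3 CPM in every library, with no overlap between groups. With at most 6 counts in any control, both genes passed edgeR's filter only through the KO libraries. Their separation is thus part of how they entered the test.

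Arpp21, a cAMP-regulated phosphoprotein gene, had no counts in any control and 43, 11, 4, 35, 6 and 138 counts in KO1 to KO6. It too passed edgeR's filter only through the KO libraries. Neurod4, a neuronal bHLH factor that edgeR's filter removed, had no counts in controls and 0, 1, 26, 0, 0 and 278 counts in KO, so that 1 library, KO6, held nearly all of them. Xrra1 showed the reverse pattern, with 22, 6, 28 and 9 counts in controls and none in any KO library; it was chosen after its values were seen. A count of 0 allowed up to 0.072 to 0.109 CPM per library.

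The direction of small differences was related to transcript length. Genes lower in KO at p below 0.05 had a median length of 4213 bases, those higher in KO had 1217, and all genes tested had 2512. The Spearman correlation of log2 fold change with length was -0.368 over all 13347 genes tested, as a description over genes that share the same libraries. The correlation with GC content was -0.06 over the 12809 of them with a GC value. Over the 8587 genes with at least 10 CPM, the correlation with length was -0.648. Among these 8587 genes, 88 of the 778 below 1 kb were higher at p below 0.05 and none lower. Of the 837 above 5 kb, 3 were higher and 160 lower. Over all genes tested, 2.26% were higher and 4.05% lower. The median log2 fold change went from 0.27 in the shortest class to -0.25 in the longest.

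This relation varied between libraries of 1 genotype. The slope of level on length, in log2 CPM per doubling of length, was 0.063 and 0.070 in WT, 0.123 and 0.162 in HET, and -0.291, 0.097, -0.090, 0.076, -0.020 and -0.191 in KO1 to KO6. KO1 and KO6 were farthest from the controls, while KO2 and KO4 lay within the control range. The difference of KO from control was -0.175 (two-sided exact permutation p = 0.0571). Leaving out 1 library at a time, it lay between -0.208 and -0.130, with an exact permutation p of 0.0476 without KO2 or without KO4 and of 0.0714 to 0.143 without any other library, the highest without HET1 or without HET2. Within genes, the ratio of long to short transcripts did not separate the groups (difference -0.05 in log2, exact permutation p = 0.238, 3257 genes).

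With an offset for transcript length in the same edgeR fit, 486 genes had p below 0.05, of which 198 were lower and 288 higher, in place of 540 and 301. Zbtb38 was again the only gene called (log2 fold change -2.02). The offset brought Arih1 to -0.48, Edrf1 to -0.37, Ece1 to -0.97, Rbsn to -0.63 and Msl2 to -0.29, and Chchd1 from 0.51 to 0.24, without a change of direction. An offset for GC content gave 447 lower and 402 higher genes, limma voom 718 and 225, and limma on log2(TPM + 1) 791 and 139, with the median of all genes at -0.08 in the last.

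**Figure D4:**
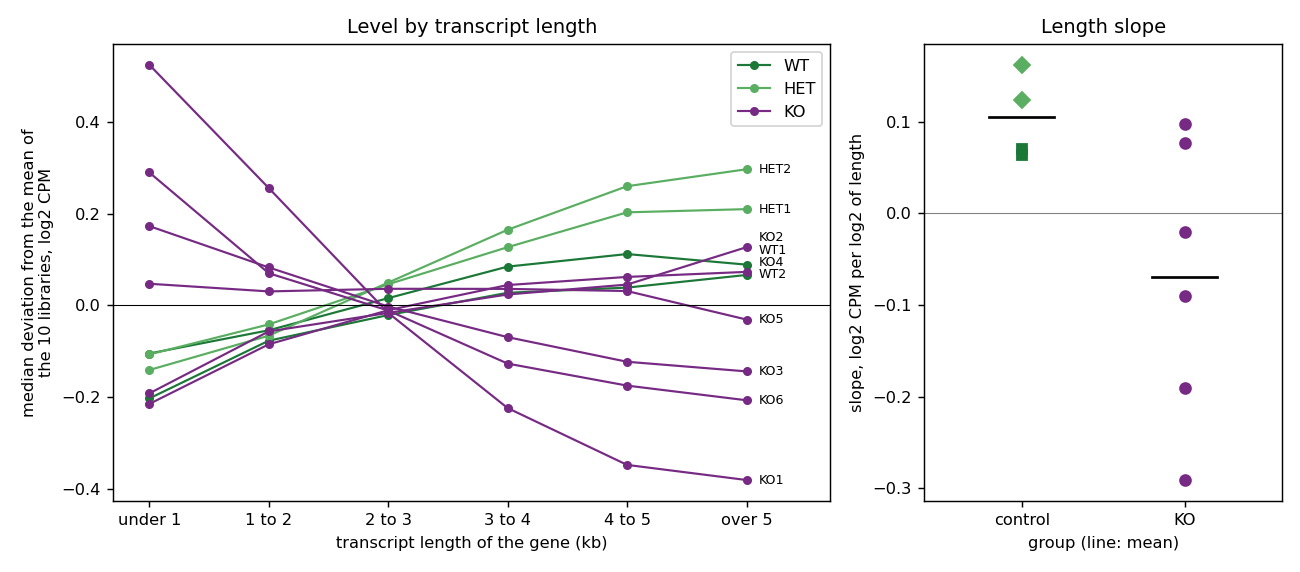
Level by transcript length in each library. Left, the median deviation from the mean of the 10 libraries in log2 CPM for genes grouped by transcript length in kb; right, the slope per doubling of length for control (squares WT, diamonds HET) and KO libraries (circles), with the group mean as a line. KO1, at -0.291, has the steepest fall with length, and KO2 and KO4 lie among the controls.

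Genes connected with ZBTB38 in the literature were next examined. Mcm10, a replication factor reported as a ZBTB38 target, had a log2 fold change of -0.15 (SE 0.18, edgeR unadjusted p 0.413), with controls at 79.0 to 108 CPM and KO at 59.4 to 104 CPM. Rbbp6, the ubiquitin ligase reported to degrade ZBTB38, was at 78.0 to 95.5 and 68.5 to 93.5 CPM (log2 fold change -0.17, SE 0.12, edgeR unadjusted p 0.170). Usp9x, a deubiquitinase reported to stabilize ZBTB38, was at 56.5 to 94.4 and 29.2 to 92.2 CPM (log2 fold change -0.57, SE 0.29, edgeR unadjusted p 0.0705). None of the 3 passed the test, and control and KO libraries overlapped for each. With the length offset the values for Mcm10 and Rbbp6 were 0.02 and 0.08, above 0. Of 17 replication genes tested, none had p below 0.05 in either direction (median log2 fold change -0.02).

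In the BTB-ZF family, 5 of 21 genes tested were lower at an unadjusted p below 0.05 (background 4.05%) and 1 was higher (background 2.26%), with a median log2 fold change of -0.16. The 5 were Zbtb38, the deleted gene itself, and Zbtb2, Zbtb11, Zbtb40 and Zbtb1. Zbtb2 was at 41.1, 36.9, 46.7 and 45.9 CPM in controls and 21.6, 33.6, 28.6, 34.5, 25.5 and 16.8 CPM in KO, without overlap (log2 fold change -0.67, SE 0.20, edgeR unadjusted p 0.00456). Zbtb11, Zbtb40 and Zbtb1 overlapped between groups. The controls differed by genotype for Zbtb40, at 10.2 and 8.44 CPM in WT and 23.6 and 22.9 CPM in HET, against 3.04 to 11.2 CPM in KO. With the length offset the family's median was -0.03. Zbtb2 was then at -0.56 (edgeR unadjusted p 0.00654), whereas Zbtb11 was at -0.20 and Zbtb40 at -0.75, neither with an unadjusted p below 0.05 (edgeR p 0.164 and 0.0513). Bcl6, the family member that defines germinal center B cells, was at 232 to 293 CPM in controls and 169 to 279 CPM in KO (log2 fold change -0.16, SE 0.15, edgeR unadjusted p 0.293).

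Zbtb32 was the member with the opposite direction. It was at 17.8, 21.4, 9.92 and 12.3 CPM in controls and 11.5, 27.9, 16.2, 31.5, 27.1 and 75.2 CPM in KO, with KO6 far above the rest (log2 fold change 1.04, SE 0.45, edgeR unadjusted p 0.0383; 0.57 without KO6). It was also the only one of 12 naive and memory B cell genes to reach an unadjusted p below 0.05. The median over that list was 0.47, and 0.10 without KO6. The control genotypes differed for this list. Its median was -0.07 for KO against WT, 1.18 for KO against HET and -0.94 for HET against WT.

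Other gene groups gave few genes at an unadjusted p below 0.05. None of 14 germinal center B cell genes (median log2 fold change -0.09), 12 dark zone genes (-0.07) or 12 light zone genes (-0.15) reached it in either direction. None of 13 oxidative stress genes did so either (median 0.06). Among 14 genes of the p53 and apoptosis list, Bax was higher (log2 fold change 0.29, SE 0.13; 0.07 with the length offset), and the median was -0.06. Among 12 plasma cell genes, Mzb1, a chaperone of antibody secretion, was higher (log2 fold change 0.29, SE 0.12; 0.06 with the length offset). Both genes overlapped between groups, and 2.26% of all genes were higher at this threshold.

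Of 13 interferon-response genes, 1 was lower at an unadjusted p below 0.05, Ifit2 (log2 fold change -0.95, SE 0.34). Of 15 genes of tissue dissociation stress, 1 was lower at that threshold, Fosb (-2.08, SE 0.93), at no more than 37 counts in a library. Over all genes this share was 4.05%, both genes overlapped between groups, and the edgeR adjusted p was 0.744 for each. Among 23 splicing factors, 1 was higher at an unadjusted p below 0.05, Srsf7, against 2.26% of all genes. It was at 421 to 477 CPM in controls and 491 to 551 CPM in KO (log2 fold change 0.18, SE 0.08), without overlap, as were 0.532% of all genes in this direction. The 10 genes listed as methyl-CpG readers or their relatives had a median of -0.10, and the only one at p below 0.05 was Zbtb38, the deleted gene itself. None of 15 germline genes that DNA methylation keeps silent was abundant enough to be tested, and their summed level did not exceed 1.5 CPM in any library.

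Markers of other cell types were detected, and their summed levels differed between the control genotypes. The summed level of 20 T cell genes was 469 and 495 CPM in WT, 263 and 281 CPM in HET and 314 to 443 CPM in KO, with Cd3e between 1.59 and 17.9 CPM. The largest members were Lck, at 160 to 171 CPM in all controls, and Cd2, at 104 and 130 CPM in WT and 56.4 and 65.7 CPM in HET. The T cell receptor constant genes Trac, Trbc1 and Trbc2 were at 18.4 to 30.7 CPM in WT, 2.01 to 4.77 CPM in HET and 3.91 to 24.3 CPM in KO. None of the 20 reached p below 0.05 for KO against control (median -0.20), but the median difference of HET from WT was -2.34. The summed level of 15 myeloid genes was 510 and 648 CPM in WT, 97.9 and 111 CPM in HET and 92.9 to 851 CPM in KO, with none at p below 0.05. Of 4 erythroid genes tested, 3 were higher at an unadjusted edgeR p below 0.05 (background 2.26%), namely the globin genes Hba-a2, Hba-a1 and Hbb-bt, with log2 fold changes of 1.76, 1.69 and 0.55 and an adjusted p of 0.744 for each. The groups overlapped for all 3, and both HET libraries were at or below 1.05 CPM for each alpha globin gene. Against WT alone none of the 3 reached an unadjusted p below 0.05 in edgeR's test (p from 0.0691 to 0.220), and with the length offset Hbb-bt was at 0.25. In bulk samples fewer cells of a type and less RNA per cell cannot be told apart, and the part of these cells in the other results was not tested.

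Of 13 genes tested within 1 Mb of Zbtb38, the gene itself left out, 1 had an unadjusted p below 0.05: Rasa2, a GTPase-activating protein gene 51.2 kb away (log2 fold change -0.23, SE 0.10, edgeR unadjusted p 0.0360). Within 10 Mb, 9 of 101 reached it, 8 of them lower, where over all genes 4.05% were lower and 2.26% higher. The median log2 fold change of the 101 genes was 0.07. Chromosome 9 as a whole had 62 of 771 genes at p below 0.05 (8.04%, against 6.30% over all genes), and the other autosomes ranged from 3.87% on chromosome 3 to 8.33% on chromosome 12.

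The control group was not uniform. Between the 2 HET and the 2 WT libraries, 856 genes had an unadjusted p below 0.05 (6.41%) and 1 was called (0.00749%). That gene was Hnrnpll, a splicing regulator of lymphocyte CD45, which had 202 and 149 counts in WT, none in either HET library and 59 to 166 counts in KO. Against a limit of 3 counts per library, WT was at least 49-fold above HET. KO and control overlapped for this gene (log2 fold change 0.39, SE 1.13).

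Shifts in the use of transcripts within genes were tested for 7029 genes with at least 2 transcripts above the filter, 22993 transcripts in all. A transcript's fold change was set against that of its gene, and 6 genes were called at an adjusted p below 0.1 (0.0854%): Zfp384, Gen1, Slc35b3, Wiz, Ikbkg and RP23-218L17.1. At an unadjusted p below 0.05 there were 69 (0.982%). Zbtb38 had an adjusted p of 0.133 in this test. It was called without the filter, with at least 10 counts in every sample, with the gene-level F test, with limma on the logit of the share and with limma's diffSplice on voom. The last of these also called 6 genes, but none of the 6 named here. The count depended on single libraries, at 1 without KO1, 2 without WT2, 10 without KO6 and 11 without HET2. In 7 of the 10 genes of smallest p, the leading transcript had no counts in any control, and in 1 it had none in any KO library. The filter and the group sizes bear on this count: a transcript with no counts in controls entered the test only with counts in at least 4 of the 6 KO libraries, which held for 16 transcripts, and one with none in KO only with counts in all 4 controls, which held for 2. Such transcripts passed the filter only through the group in which they were present.

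The clearest redistribution was at RP23-218L17.1, named D3Ertd254e in a later annotation (chr3:36151017-36170342, plus strand, GRCm38). Its transcript ENSMUST00000197653.4 had 238, 220, 282 and 247 counts in controls and 69, 138, 139, 104, 104 and 35 counts in KO. ENSMUST00000165956.2 had 7, 0, 0 and 0 counts in controls and 207, 73, 83, 118, 101 and 7 counts in KO. The latter held 0% to 2.86% of the gene's TPM in controls and 16.2% to 75.4% in KO, without overlap, while the gene's own level overlapped between groups (log2 fold change -0.24, SE 0.43, 95% interval -1.17 to 0.70). ENSMUST00000165956.2 also passed the filter only through the KO libraries. Its share of 16.2% was in KO6, where it had 7 counts, as in WT1, beside 35 of the other transcript.

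The 2 transcripts share their internal exons. ENSMUST00000197653.4 has an extra first exon of 179 bases (chr3:36151017-36151195), whose end carries its start codon, and its last exon runs 7 bases further. The sequence across its first junction and the first 30 bases of the other transcript are printed to show where they part. Capitals mark the start codon.
D3Ertd254e ENSMUST00000197653.4: agtcaagccacaATGgaacagttgaccttc
D3Ertd254e ENSMUST00000165956.2: gaacagttgaccttcagggatgtggccatt
The second sequence begins at chr3:36159522, the first base of the exon that both share, and its first 15 bases are the last 15 of the first.

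Ikbkg, which encodes the NF-κB regulator NEMO, showed the reverse pattern for a minor transcript. ENSMUST00000164101.7 had 68, 136, 75 and 82 counts in controls and none in any of the 6 KO libraries. It made up 1.28% to 3.45% of the gene's TPM in controls. At the level of the gene, the log2 fold change was -0.55 (SE 0.20, edgeR unadjusted p 0.0176), with overlap between groups.

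In the other 4 genes called, the leading transcript had no counts in any control and counts in part of the KO libraries, and it was tested only because at least 4 KO libraries had counts. For Zfp384, a zinc finger transcription factor gene, ENSMUST00000112427.7 had no counts in controls and 316, 76, 134, 43, 32 and 0 counts in KO1 to KO6. For Slc35b3, a sulfate-donor transporter gene, ENSMUST00000021870.11 had none in controls and 22, 19, 76, 59, 58 and 0 counts in KO. Both were absent from KO6 as well.

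For Gen1, the gene of a Holliday junction resolvase, ENSMUST00000218547.1, of the nonsense-mediated decay class, had no counts in controls and 0, 15, 11, 17, 86 and 225 counts in KO. For Wiz, which encodes a partner of histone methyltransferases, ENSMUST00000064694.13 had none in controls and 32, 18, 72, 0, 6 and 40 counts in KO. Each of these 4 transcripts held at most 13.3% of its gene's TPM in any library, and the log2 fold changes of the 4 genes lay between -0.18 and 0.12, with overlap between groups. When only transcripts with at least 5% of the gene's count were tested, no gene was called with edgeR at an adjusted p below 0.1, and 30 had an unadjusted p below 0.05. Salmon's own uncertainty in dividing reads among overlapping transcripts was not available, so its part in these shifts was not tested.

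**Figure D5:**
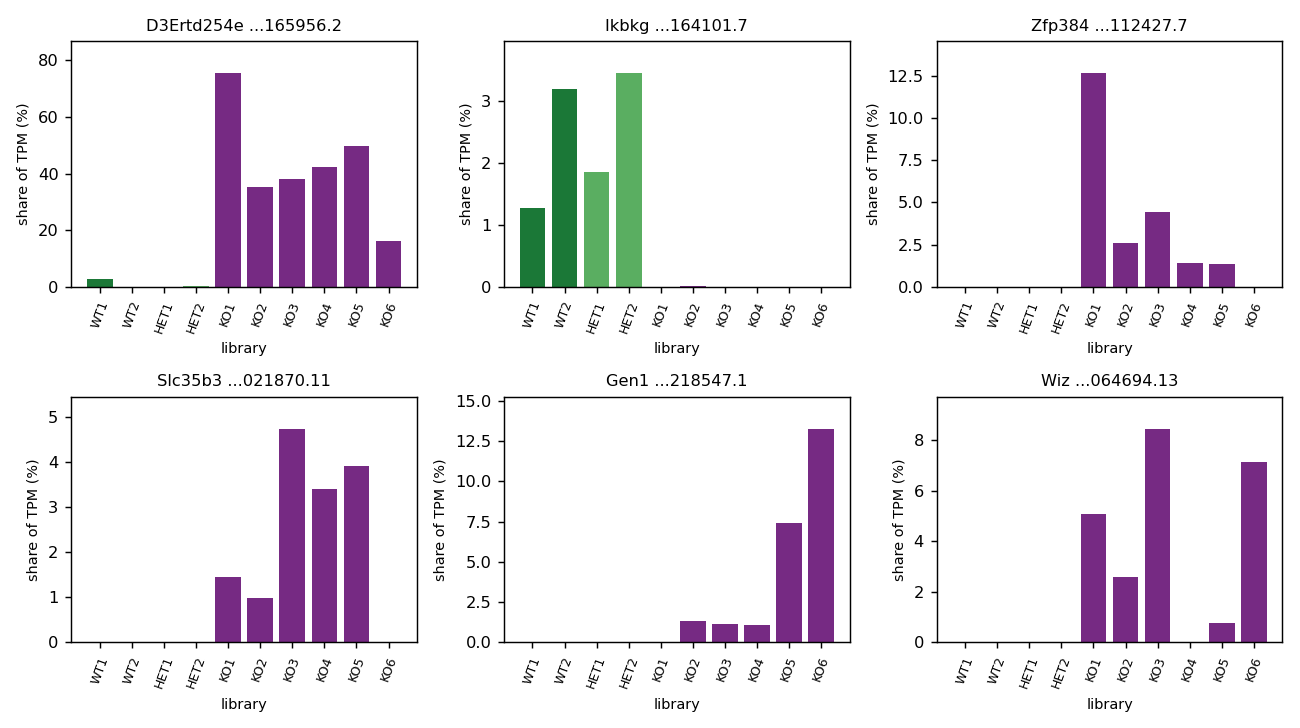
Share of the gene's TPM held by the leading transcript of each of the 6 genes called, in percent, with 1 bar per library (dark green WT, light green HET, purple KO). Each panel has its own vertical scale, starting at 0. D3Ertd254e (RP23-218L17.1) reaches 16.2% to 75.4% in KO, Ikbkg is present only in the controls beyond 0.01%, and the other 4 are missing from all controls and from at least 1 KO library.

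Of the 29105 transcripts tested for level, 1143 had an unadjusted p below 0.05 (3.93%), 215 were lower in all KO libraries than in all controls (0.739%) and 120 were higher (0.412%). DESeq2 called 75 of 33310 (0.225%), of which 3 belonged to Zbtb38, 25 had no counts in any control and 5 had none in any KO library. Most genes kept the same leading transcript: it was identical in all 10 libraries for 4411 of the 7029 genes (62.8%). Pairs of libraries had the same leading transcript for a median of 86.1% of genes within the controls (84.8% to 87.5%), 85.1% within KO (79.4% to 88.1%) and 85.7% between the groups (79.3% to 88.3%). The 3 ranges overlapped. Slc7a2, a cationic amino acid transporter gene, was the only gene with one leading transcript in all controls and another in all KO libraries.

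The overall makeup of transcript classes did not separate the groups either. Transcripts of the nonsense-mediated decay class made up 3.03% to 3.08% of all TPM in controls and 2.75% to 3.39% in KO (exact permutation p = 0.552). Complete coding transcripts made up 80.2% to 83.6% and 79.4% to 82.8% (difference -0.66 points, exact permutation p = 0.543), and coding transcripts incomplete at an end differed by -0.30 points (exact permutation p = 0.295).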

How the data were processed

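Per the labels and the study's methods, the authors quantified paired-end reads with Salmon (version 0.9.1 in the submitters' processing notes, which also list DESeq2 2.11.40.6) against coding transcripts of Gencode vM17, and deposited estimated counts and TPM for 64019 transcripts of 22380 genes in each of 10 libraries. Of the count values, 46.7% were not whole. Estimated counts were summed per gene or kept per transcript, rounded, and normalized by TMM. The main test was edgeR's quasi-likelihood test (4.0.16, R 4.3.3) after filterByExpr, with WT and HET as 1 control level, no covariate and a Benjamini-Hochberg threshold of 0.1. Transcript use was tested with diffSpliceDGE (Simes p per gene). Alternatives used DESeq2 1.42.0, limma 3.58.1 and other settings. A count of 0 was taken to allow up to 3 counts, which covers counting error only.

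Coordinates came from the GRCm38 annotation vM21, in which 22349 genes matched. Named genes were Zbtb38, the 10 of smallest DESeq2 adjusted p, the 10 of smallest edgeR p in each direction with at least 1 CPM, the 10 of smallest transcript-use p, the transcripts called, 4 literature genes and up to 4 genes per list; exceptions are marked, and 1 gene is not reported here. Members and lists were chosen with earlier results of these data known. Scripts were tested on simulated data.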

Additional observations from a re-analysis of the deposited data

Results flagged for a closer look

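Within groups of 4 or 6 libraries, 160 sets of values were examined for a library far from the others, and 9 were found, 6 of them in KO6. Chance alone gives about 1 in 20. Zbtb32 was at 75.2 CPM in KO6, against a KO median of 27.5 CPM. Neurod4 was at 8.37 CPM and Arpp21 at 4.15 CPM in KO6, against medians of 0.0181 and 0.748 CPM. In the same library Zfp384 was at 124 CPM and Dusp12, a dual-specificity phosphatase gene, at 31.5 CPM, above medians of 84.8 and 16.7 CPM, while RP23-218L17.1 was at 1.23 CPM, below a median of 7.12 CPM.

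The other 3 were elsewhere. Igkv19-93 was at 90.9 CPM in WT1, against a control median of 44.0 CPM. Srsf7 was at 551 CPM in KO1, against a KO median of 509 CPM. The summed level of myeloid genes was 851 CPM in KO4, against a KO median of 321 CPM.

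Within the control group, Hnrnpll was at least 49-fold higher in WT than in HET, where neither library had a count.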

How the results depend on the processing

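Over 1473 recomputed values of named genes, transcripts and lists, 1304 kept their direction and side of the threshold or moved by less than the spread, 101 lost and 36 gained significance, 17 moved and 15 reversed. Most named genes were not called in the main test, so a kept side of the threshold mostly means that they stayed uncalled. Significance could be lost only by Zbtb38, ENSMUST00000126066.7 and the 6 genes called for transcript use, so all 101 losses fell on these. The count of genes called was 0 with the replicate block (Zbtb38 adjusted p 0.601), limma on log2(TPM + 1), counts scaled by transcript length, HET as the only control, WT against KO libraries with Y-linked transcripts, and HET against those without; it was 25 with DESeq2 and 1 to 2 leaving out 1 library (2 without WT1, the other being Serpinc1). Transcripts called numbered 0 at an adjusted p of 0.05, with the replicate block, limma on log2(TPM + 1) and HET as the only control, 2 with at least 10 counts in every sample, 75 with DESeq2, and 0 to 2 leaving out 1 library (1 without HET1, 2 without KO6, 0 without any other). Genes with shifted use numbered 0 at an adjusted p of 0.05 and with transcripts of at least 5% share, 1 with at least 10 counts in every sample, 2 with a gene-level F test, 3 with WT as the only control, 13 without filter, 15 with a term per genotype, 31 with the replicate block and 1 to 11 leaving out 1 library (1 without KO1, 11 without HET2). Only replicate numbers 1 and 2 were shared between groups, and no source says what they mark; the correlations of same-numbered deviations were -0.00551 to 0.131, so the samples were not treated as paired.

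Zbtb38 kept adjusted p values of 0.00162 to 0.0789 without any 1 library. The length slope ranged from -0.208 to -0.130 leaving out 1 library. Values near 0 reversed: Mcm10 was at 0.0438 with WT as the only control, 0.0157 with the length offset and 0.17 for WT against KO with Y-linked transcripts; Rbbp6 was at 0.0797 with the length offset; Bcl6 was at 0.014 with the replicate block, 0.00899 with the length offset and 0.10 for WT against KO with Y-linked transcripts. ENSMUST00000128269.7 was at -0.014 without filter, -0.0324 with a Y-linked covariate, -0.16 with limma on log2(TPM + 1), -0.0592 with voom, -0.0642 with HET only, -0.14 with the length offset, and -0.193 to 0.0691 leaving out 1 library. The causes were not tested. The offsets, the splits by Y-linked transcripts and the recomputed length values were chosen after seeing the data.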

Other observations

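Immunoglobulin constant genes report the class of antibody being made, and 1 of 13 tested had an unadjusted p below 0.05 (7.69% higher, against 2.26% of all genes). Ighm, the IgM constant gene, was at 7534 and 7864 CPM in WT, 2770 and 3247 CPM in HET and 3864 to 11794 CPM in KO, the highest in KO6. Ighg1, the isotype that alum adjuvants favor, was at 2846 to 3271 CPM in controls and at 2177, 2824, 3545, 2996, 1926 and 354 CPM in KO1 to KO6, the lowest in KO6. Its log2 fold change was -0.41 (SE 0.41, edgeR unadjusted p = 0.336). The 1 gene was Igha, at 35.0 to 86.8 CPM in controls and 67.4 to 262 CPM in KO, with overlap (log2 fold change 1.09, SE 0.38, edgeR unadjusted p 0.0141).

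Men1, which encodes the chromatin regulator menin, was noticed outside the rule for named genes. Its transcript ENSMUST00000113504.9 had 156, 50, 87 and 350 counts in controls and 18, 11, 4, 5, 9 and 1 counts in KO, without overlap, while the gene's log2 fold change was -0.25 (SE 0.11). It held 1.41% to 9.22% of the gene's TPM in controls and at most 0.611% in KO. The adjusted p for transcript use of Men1 was 0.218.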
